A study of Mus musculus with 18 samples.

Results

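The 39 genes described here cover the supply of amino acids for protein synthesis. They are 20 cytosolic aminoacyl-tRNA synthetases, 12 enzymes of amino acid and one-carbon synthesis and 7 amino acid transporters. They were taken as the rows of the deposited count table whose gene symbol equals a listed member, with the older symbols of that table (Aars for the alanyl-tRNA synthetase). All 39 were found among 30530 genes, and all 39 were among the 12741 genes that passed the filter on low counts. The libraries came from mouse macrophages, phagocytes that had been differentiated from bone marrow in culture. The study tested 25-hydroxycholesterol (25HC), the oxysterol product of the Ch25h enzyme.

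Aminoacyl-tRNA synthetases join each amino acid to its tRNA before translation, and Gars and Kars encode both the cytosolic and the mitochondrial enzyme for glycine and lysine. Many of these genes, with Asns, the serine and one-carbon enzymes and several transporters, are known targets of ATF4. This transcription factor is made when translation initiation is restrained in the integrated stress response, for example in amino acid shortage or stress of the endoplasmic reticulum, and it binds composite sites for C/EBP and ATF proteins. In activated macrophages serine and one-carbon enzymes also supply nucleotide synthesis and methylation.

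There were 6 groups of 3 libraries, numbered 1 to 3 by mouse. With Pam3CSK4 (PAM3), a lipopeptide that activates Toll-like receptor signalling, they were Ch25h-/- cells without 25HC, C57BL/6 (B6) cells given 5 µM of 25HC for 18 hours beforehand, and B6 cells without 25HC (untreated B6). The same 3 kinds of cells were studied at rest. PAM3 was given at 300 ng/mL. The labels give a stimulation time of 18 (no unit) with PAM3 and 0 at rest. A vehicle for untreated cells and the culture time of resting cells are not given in the labels, so that PAM3 and time in culture cannot be told apart. 25HC-treated and untreated B6 libraries of the same number come from the same mouse by their labels.

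Gene counts per library totalled 14040513 to 150440297. Levels are in CPM, which are counts scaled to a fixed library total with TMM factors, given per library in the order of replicates 1, 2 and 3. Ch25h lay between 0 and 0.119 CPM in the 6 Ch25h-/- libraries, against 1.66 to 40.8 CPM in the 12 B6 libraries. In untreated B6 it lay at 20.4, 3.16 and 10.2 CPM at rest and at only 3.55, 1.66 and 2.14 CPM with PAM3. Of the 8 macrophage markers listed, 7 are in the table under the symbols used, and their summed level lay between 18380 and 57970 CPM in all 18 libraries, while Cd3e and Cd3g of lymphocytes were at 0 in every group. Replicate 2 had the lowest level of its group for 36 of the 39 members in 25HC-treated B6 at rest, 33 in untreated B6 at rest, 32 in Ch25h-/- at rest and 36 in Ch25h-/- with PAM3. Over all tested genes the share with replicate 2 lowest was 44.3%, 44.0%, 43.9% and 39.6% in the same 4 groups. In the other 2 groups, 25HC-treated and untreated B6 with PAM3, replicate 2 was lowest for 7 and 20 members. Tests are edgeR quasi-likelihood tests with Benjamini-Hochberg adjustment over all 12741 genes, and a gene is said to rise or fall at an adjusted p below 0.05. Values after ± are SE of log2 fold changes.

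**Figure D1:**
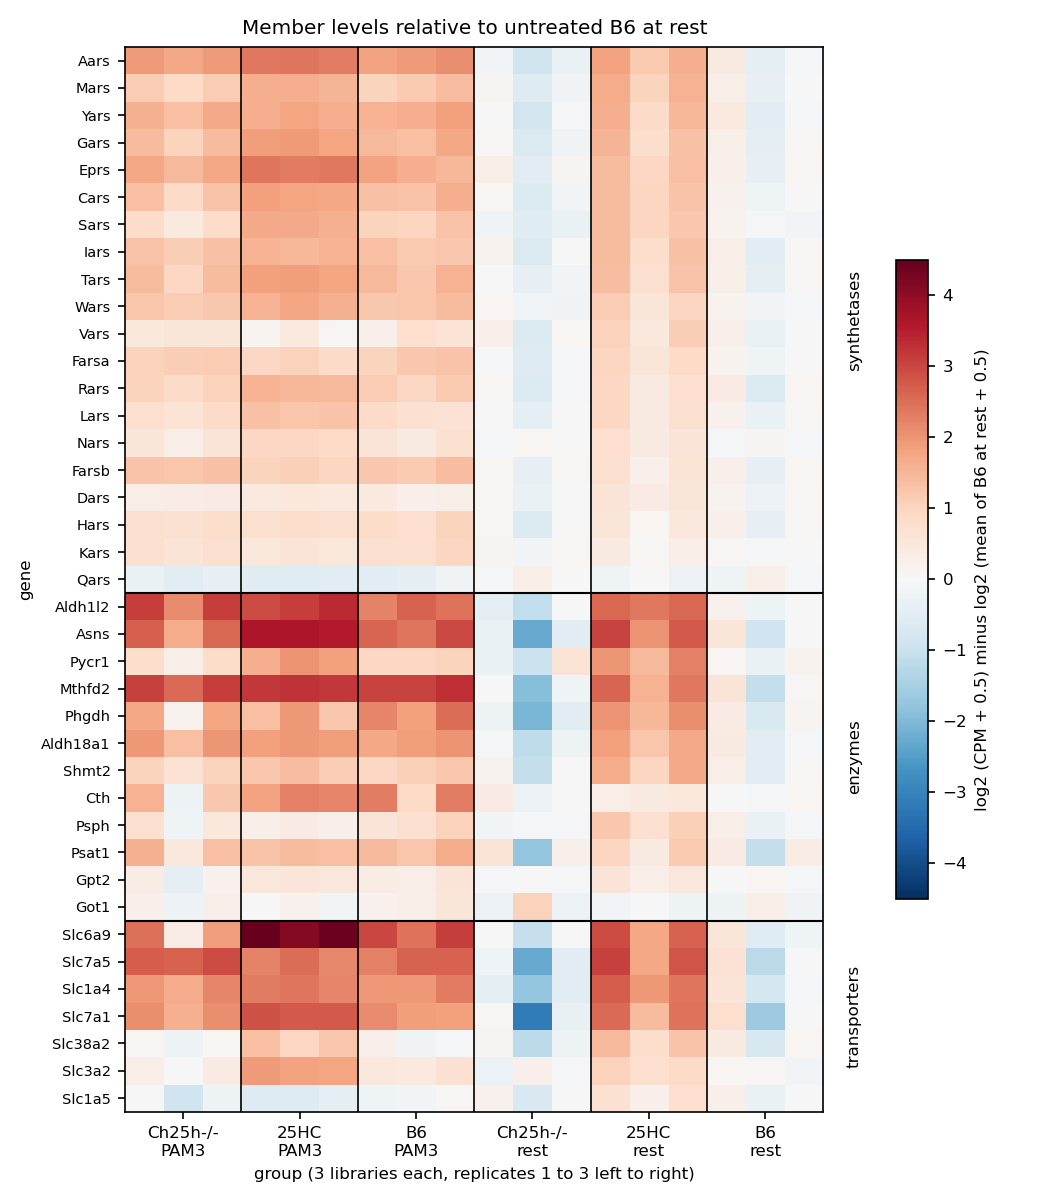
Level of each of the 39 genes (rows) in each of the 18 libraries (columns, 3 per group), as log2 (CPM + 0.5) minus the log2 of the untreated B6 mean at rest plus 0.5. Red is above and blue below that mean. Most genes are red in the 3 groups with PAM3 and in 25HC-treated B6 at rest, Qars is blue with PAM3, and replicate 2 is the lowest column of the resting groups for most genes.

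At rest, 25HC raised most of the genes in all 3 roles. Of 39 members 32 rose (14.8% of all tested genes rose) and 0 fell (11.4% of all genes fell), where 26.2% of all genes changed in either direction. They were 17 of 20 synthetases, 9 of 12 enzymes and 6 of 7 transporters, with median log2 fold changes of 0.91, 1.58 and 2.25, against -0.01 over all genes. The change was at least 2-fold for 22 members. Libraries of 25HC-treated cells lay above all untreated ones for 34 members (22.2% of all genes), and 0 members lay below. In bulk RNA, fewer cells of a type and less RNA per cell cannot be told apart. The summed macrophage markers were 18380 to 20350 CPM with 25HC, against 24030 to 31210 CPM in untreated cells at rest, and their part in the result was not tested. Cell cycle markers (6 genes) overlapped, at 533.6 to 875.6 CPM with 25HC and 515.1 to 1296 CPM in untreated cells.

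Among synthetases the largest rises at rest were those of the alanine, methionine, tyrosine, glycine and glutamate-proline enzymes. Aars (GRCm38 chromosome 8, 111033144 to 111057664, plus strand) lay at 357, 229 and 318 CPM in 25HC-treated cells, against 136, 74.4 and 96.8 CPM in untreated cells (log2 fold change 1.56 ± 0.22 SE, edgeR adjusted p = 0.000301). Mars lay at 122, 75.1 and 111 CPM with 25HC, against 46.8, 29.4 and 36.9 CPM in untreated cells (1.45 ± 0.21, edgeR adjusted p = 0.000312). For both genes every 25HC library was above every untreated one, and replicate 2 was lowest on both sides. Yars measured 84.7, 49.3 and 77.6 CPM with 25HC and 36.9, 18.5 and 25.3 CPM in untreated cells (1.40 ± 0.26, edgeR adjusted p = 0.00152). Gars measured 172, 105 and 152 CPM with 25HC and 71.6, 45.1 and 62.6 CPM in untreated cells (1.26 ± 0.21, edgeR adjusted p = 0.000967). Eprs, a single protein that charges tRNA for glutamate and for proline, had 239.7, 169 and 228 CPM with 25HC and 104, 68.1 and 94.9 CPM in untreated cells (1.26 ± 0.20, edgeR adjusted p = 0.000587). These 3 pairs of groups did not overlap either. The other 12 synthetases that rose had log2 fold changes from 0.50 (Dars, for aspartate) to 1.25 (Cars, for cysteine). The enzymes for histidine (Hars, 0.39 ± 0.17), lysine (Kars, 0.25 ± 0.10) and glutamine (Qars, -0.15 ± 0.14) did not pass the test, and the groups overlapped for Hars and Qars.

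Among biosynthetic enzymes the mitochondrial one-carbon, asparagine, proline and serine steps rose most. Aldh1l2, a mitochondrial formyltetrahydrofolate dehydrogenase, lay at 9.54, 8.02 and 9.36 CPM with 25HC, against 1.42, 0.905 and 1.16 CPM in untreated cells (2.97 ± 0.32, edgeR adjusted p = 3.48e-05). Asns (GRCm38 chromosome 6, 7675169 to 7693254, minus strand), asparagine synthetase, lay at 172, 85.3 and 141 CPM with 25HC, against 30.1, 10.8 and 20.5 CPM in untreated cells (2.70 ± 0.45, edgeR adjusted p = 0.000859). The lowest 25HC library of each stayed above the highest untreated library. Pycr1, the last step of proline synthesis, was low but separated, with 3.92, 2.58 and 4.79 CPM with 25HC and 0.680, 0.404 and 0.748 CPM in untreated cells (2.65 ± 0.44, edgeR adjusted p = 0.000862). Mthfd2, which oxidises methylene-tetrahydrofolate in mitochondria, had 153, 73.7 and 130.3 CPM with 25HC and 37.1, 11.4 and 25.4 CPM in untreated cells (2.28 ± 0.44, edgeR adjusted p = 0.00215). Phgdh, which starts serine synthesis from a glycolytic intermediate, had 25.3, 17.4 and 26.5 CPM with 25HC and 7.69, 3.43 and 6.46 CPM in untreated cells (1.99 ± 0.47, edgeR adjusted p = 0.00691). In these 3 as well, replicate 2 was lowest in both groups and the groups did not overlap. Aldh18a1, which starts proline synthesis (1.65 ± 0.26), Shmt2, which passes a carbon from serine to folate (1.503 ± 0.28), Psph, the last serine step (1.07 ± 0.22), and Gpt2, a mitochondrial alanine transaminase (0.48 ± 0.15), also rose. Psat1, the middle serine step (0.90 ± 0.47), Cth, which makes cysteine from cystathionine (1.12 ± 0.76), and Got1, the cytosolic aspartate transaminase (-0.12 ± 0.28), did not pass. Psat1 rose with the mouse as a block (0.95, edgeR adjusted p = 0.0235).

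Transporters had the largest median change of the 3 roles. Slc6a9, a glycine carrier, lay at 7.40, 2.92 and 5.98 CPM with 25HC, against 0.989, 0.195 and 0.395 CPM in untreated cells (3.50 ± 0.66, edgeR adjusted p = 0.00186). Slc7a5 (GRCm38 chromosome 8, 121881150 to 121907694, minus strand), the light chain of a carrier of large neutral amino acids, lay at 88.6, 34.8 and 74.4 CPM with 25HC, against 16.3, 4.10 and 9.89 CPM in untreated cells (2.72 ± 0.48, edgeR adjusted p = 0.00129). In both, replicate 2 with 25HC was the lowest treated library and still above all untreated ones. Slc1a4, a carrier of alanine, serine and cysteine, had 25.8, 14.7 and 20.6 CPM with 25HC and 5.38, 1.77 and 3.177 CPM in untreated cells (2.59 ± 0.37, edgeR adjusted p = 0.000342). Slc7a1, a carrier of arginine and lysine, had 173, 79.3 and 159 CPM with 25HC and 49.0, 9.04 and 29.1 CPM in untreated cells (2.25 ± 0.60, edgeR adjusted p = 0.0139). Untreated replicate 2 was far below untreated replicate 1, and no 25HC library overlapped them. Slc3a2, the heavy chain that pairs with Slc7a5, rose less (0.90 ± 0.13), as did Slc38a2, a sodium-coupled carrier of neutral amino acids (1.21 ± 0.30). Slc1a5, a glutamine carrier, had a value of 0.57 ± 0.23 short of the test, and rose with the mouse as a block (0.57, edgeR adjusted p = 0.00376). Without 25HC replicate 1 the calls of Farsb (0.44), Rars (0.60), Gpt2 (0.42), Slc7a1 (2.04) and Slc38a2 (1.06) were lost. Farsb, Rars and Gpt2 were also lost without 25HC replicate 3 (0.49, 0.69 and 0.44), Farsb and Rars without untreated replicate 2 (0.38 and 0.49), and Gpt2 without untreated replicate 1 or 3 (0.47 and 0.45).

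The sequence before RefSeq starts of these genes was searched for short motifs, among them letters that ATF4-related factors are known to bind. RefSeq windows of 250 bases before the start, on GRCm38.p6, matched 27 of the 39 members by symbol (31 windows, as a gene can have several starts). TGATGNAA, the core of the composite C/EBP and ATF element, was found on either strand in 6 of the 31 windows (19.4%), against 1134 of all 32851 windows (3.45%). The matches of 5 members are shown. The 8 matching letters are in capitals, and each sequence runs 5′ to 3′ along the gene's own strand.
Asns, chr6:7693215-7693242, minus strand: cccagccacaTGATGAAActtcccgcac
Gars, chr6:55037961-55037988, plus strand: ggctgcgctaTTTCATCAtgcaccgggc
Pycr1, chr11:120643834-120643861, minus strand: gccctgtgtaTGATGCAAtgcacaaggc
Tars, chr15:11399659-11399683, minus strand: aggagtcccgTTGCATCAgctggtt
Got1, chr19:43524690-43524717, minus strand: attgcattggTTGCATCAtacaagcctc

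In Asns and Pycr1 the motif reads with the gene, and in Gars, Tars and Got1 its reverse complement is seen. The first of the 8 bases stood 23, 30 and 15 bases before the start in Asns, Gars and Tars, and 103 and 102 bases before it in Pycr1 and Got1. These starts are those of the RefSeq windows. In the GRCm38 annotation used for gene positions here, Asns begins further upstream, so that its letters lie inside the gene, 22 bases after its first base. Gars, Tars, Asns and Pycr1 rose with 25HC at rest and with PAM3 in untreated B6, as did 31 of all 39 members, so this says nothing particular to genes with the letters. Got1 passed the test in none of the 9 comparisons. CACGTG, the E-box read by factors such as MYC, was in 4 member windows (12.9%, against 6.02% of all windows), among them those of Farsb, Iars and Aldh18a1. TGACGTCA, the cyclic AMP response element, was in 0 member windows, against 1.55% of all. None of the 3 motifs contains another, each was searched on both strands, and a match describes the letters only.

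A list of stress response regulators was read beside these genes at rest, and whether they share a cause with the members was not tested. Of 14 stress response regulators 10 rose with 25HC and 0 fell, where 14.8% of all genes rose and 11.4% fell. These shares stand beside the counts of every list in this paragraph. Atf4 lay at 402, 283 and 362 CPM with 25HC, against 128, 88.0 and 103 CPM in untreated cells (1.72 ± 0.19, edgeR adjusted p = 4.34e-05). Trib3, a stress-induced pseudokinase (3.43 ± 0.25), Atf5 (1.99 ± 0.17), Chac1, which degrades glutathione (4.11 ± 0.55), Cebpb (1.90 ± 0.28) and Ddit3 (1.00 ± 0.16) rose too. The other 4, Eif2ak1, Eif2ak2, Eif2ak4 and Ddit4, did not pass and were lower with 25HC by group mean. Eif2ak2 lay at 114, 103 and 89.7 CPM with 25HC, below every untreated library (164, 130 and 141 CPM). Myc measured 74.8, 32.2 and 74.0 CPM with 25HC and 24.2, 3.11 and 13.96 CPM in untreated cells (2.15 ± 0.54, edgeR adjusted p = 0.00969), with replicate 2 lowest on both sides. Of 17 mitochondrial synthetases 5 rose and 1 fell. Of the 3 scaffold proteins of the multisynthetase complex Aimp2 (0.88 ± 0.24) and Eef1e1 (1.10 ± 0.37) rose. Among 15 tested other enzymes 3 rose and 1 fell, with Bcat1, which transaminates branched-chain amino acids, at 3.79 ± 0.69 and Ass1, an arginine synthesis enzyme, at 2.09 ± 0.56. Of 16 other transporters 5 rose and 4 fell, and Slc7a11, the cystine carrier, rose most (3.33 ± 0.85). Cbs, Gldc and Slc43a1 of these lists did not pass the filter on low counts.

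With PAM3 present, fewer members passed the test for 25HC. Of 39 members 10 were higher in 25HC-treated than in untreated B6 (21.5% of all genes were) and 1 was lower (23.6% of all genes were), where 45.1% of all genes differed in either direction, so the members' share of higher calls was near that of all genes. Libraries of 25HC-treated cells lay above all untreated ones for 20 members (28.5% of all genes) and below them for 6 (30.0% of all genes). The 10 were 5 synthetases, 2 enzymes and 3 transporters, and the median log2 difference over the 39 was 0.23, against -0.04 over all genes. Macrophage markers summed to 26260 to 32860 CPM with 25HC, against 44360 to 57970 CPM in untreated cells with PAM3. By group mean Csf1r was higher with 25HC (2674 against 2184 CPM) and the other macrophage markers were lower. Cell cycle markers summed to 38.75 to 42.48 CPM with 25HC, against 54.51 to 77.58 CPM in untreated cells. The part of these markers in the result was not tested. Eprs, with 474, 447 and 464 CPM with 25HC and 316, 276 and 251 CPM in untreated cells (0.72 ± 0.20, edgeR adjusted p = 0.00741), led the synthetases. Sars, for serine, had 348, 347 and 322 CPM with 25HC and 209, 205 and 254 CPM in untreated cells (0.61 ± 0.15, edgeR adjusted p = 0.00324). Lars, for leucine, had 156, 149 and 152 CPM with 25HC and 116, 102 and 99.8 CPM in untreated cells (0.53 ± 0.15, edgeR adjusted p = 0.0107). In all 3 the groups did not overlap, and the calls were kept without any 1 of the 6 libraries.

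The rises of 2 transporters with 25HC in the presence of PAM3 were called in every fit that left out 1 library. Slc3a2 (GRCm38 chromosome 19, 8706882 to 8723369, minus strand) lay at 757, 701 and 693 CPM with 25HC, against 280.4, 273 and 322 CPM in untreated cells (1.30 ± 0.14, edgeR adjusted p = 4.53e-06). Slc38a2 lay at 421, 312 and 383 CPM with 25HC, against 193, 145 and 153 CPM in untreated cells (1.18 ± 0.30, edgeR adjusted p = 0.00512). In both, the lowest library with 25HC was far above the highest untreated one. Slc7a5, the partner of Slc3a2, showed 49.3, 60.0 and 47.5 CPM with 25HC and 50.1, 65.6 and 66.7 CPM in untreated cells, overlapping groups (-0.22 ± 0.45, edgeR adjusted p = 0.723).

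The other 6 calls, of Slc6a9, Pycr1, Aldh1l2, Wars, Nars and Kars, depended on single libraries. Slc6a9 had 22.6, 17.3 and 21.5 CPM with 25HC and 7.71, 5.14 and 8.41 CPM in untreated cells (1.53 ± 0.55, edgeR adjusted p = 0.032), and lost its call without any 1 library but 25HC replicate 2 (1.34 to 1.68). Pycr1, with 2.98, 4.06 and 3.47 CPM with 25HC and 1.63, 1.60 and 1.72 CPM in untreated cells (1.09 ± 0.40, edgeR adjusted p = 0.0374), and Aldh1l2, with 12.4, 13.9 and 16.5 CPM with 25HC and 7.41, 9.90 and 8.61 CPM in untreated cells (0.72 ± 0.28, edgeR adjusted p = 0.0473), lost theirs without any 1 of the 6 libraries (0.97 to 1.20 and 0.61 to 0.83). None of these 3 pairs overlapped. Wars, for tryptophan, measured 122, 141 and 125 CPM with 25HC and 95.05, 97.8 and 110.3 CPM in untreated cells (0.35 ± 0.13, edgeR adjusted p = 0.0355), and Nars, for asparagine, 426, 431 and 412 CPM with 25HC and 335, 296 and 369 CPM in untreated cells (0.34 ± 0.11, edgeR adjusted p = 0.0231). Wars lost its call without 25HC replicate 2 or 3 or untreated replicate 1 or 2 (0.29 to 0.38), and Nars without 25HC replicate 1 or 2 or untreated replicate 2 (0.27 to 0.34). Kars was the 1 lower gene, with 88.9, 92.6 and 88.3 CPM with 25HC and 101, 103 and 122 CPM in untreated cells (-0.27 ± 0.10, edgeR adjusted p = 0.0375), and lost its call without any 25HC replicate or untreated replicate 3 (-0.30 to -0.18). The count of calls was 6 without any 1 of 25HC replicates 1, 2 and 3 or untreated replicate 2, 7 without untreated replicate 3 and 22 (15 higher, 7 lower) without replicate 2 of every group. With the mouse as a block it was 16 (14 higher, 2 lower), and Asns (0.98), Cars (0.39), Rars (0.43) and Tars (0.44) became higher and Slc1a5 (-0.46) lower.

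**Figure D2:**
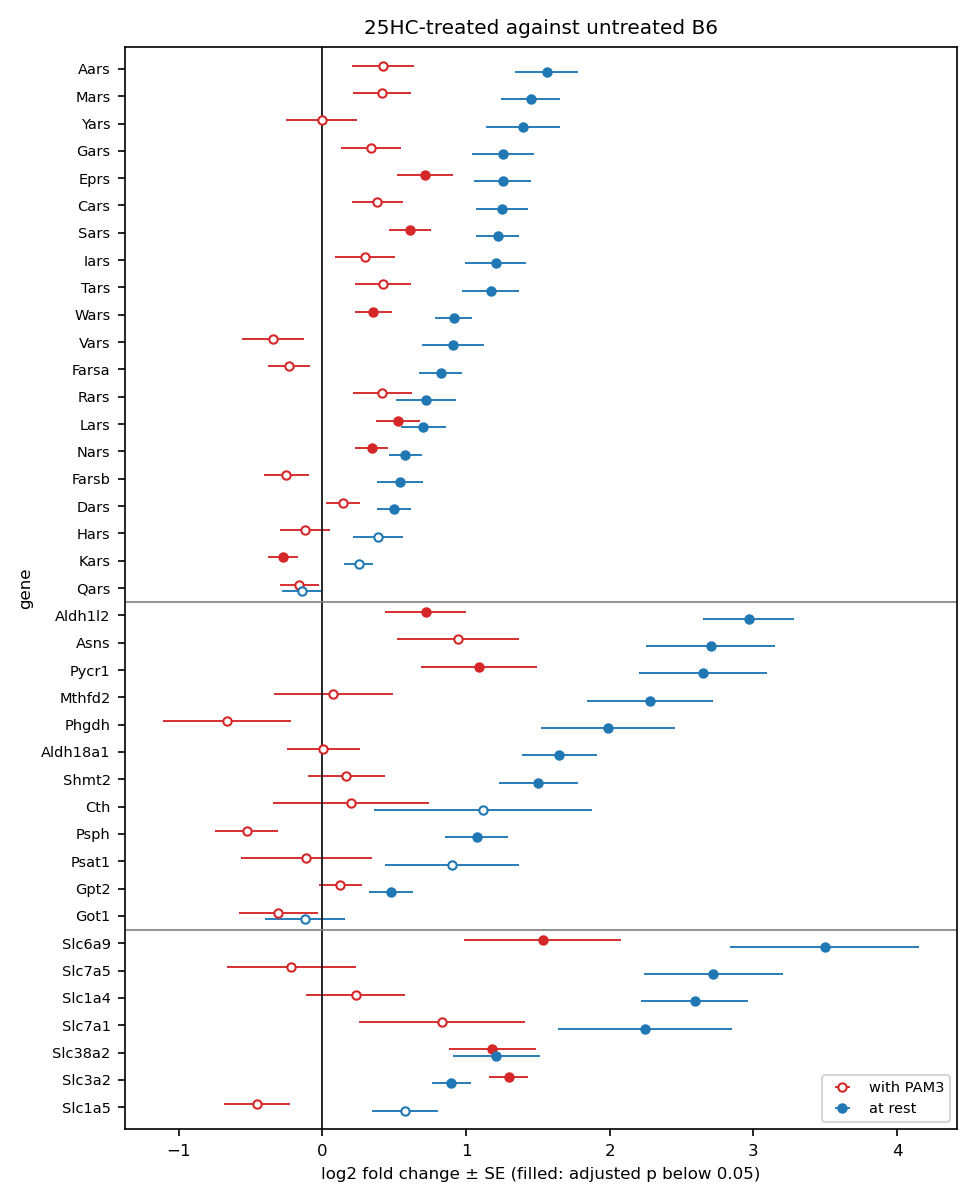
Log2 fold change of 25HC-treated over untreated B6 for each gene, with bars of 1 SE, in cells with PAM3 (red) and at rest (blue). Filled points have an adjusted p below 0.05. At rest 32 points are filled and all to the right of 0, and with PAM3 11 are filled. For Slc3a2 the point with PAM3 lies right of the point at rest (1.30 and 0.90), for Slc38a2 they nearly coincide (1.18 and 1.21), and for the other 37 genes the point with PAM3 lies to the left.

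PAM3 alone raised nearly all the genes in untreated B6. Of 39 members 35 rose (31.3% of all genes rose) and 1 fell (30.8% of all genes fell), where 62.1% of all genes changed in either direction. All 20 synthetases passed, 19 upward, with 11 of 12 enzymes and 5 of 7 transporters upward, and the median log2 fold change was 1.27, against 0.00 over all genes. Summed levels of 6 cell cycle markers moved with PAM3, at 54.51 to 77.58 CPM with PAM3 against 515.1 to 1296 CPM at rest in untreated B6. The sums of macrophage and osteoclast markers moved too, but not every marker went the way of its sum. Macrophage markers summed to 44360 to 57970 CPM with PAM3, against 24030 to 31210 CPM at rest. By group mean Emr1, Itgam, Fcgr1 and Lyz2 were higher with PAM3. Csf1r, Cd68 (363.5 against 1726 CPM) and Mertk were lower. Osteoclast markers summed to 26.28 to 37.72 CPM with PAM3, against 42.74 to 68.27 CPM at rest. By group mean Atp6v0d2 (2.198 against 50.45 CPM) and Ctsk were lower with PAM3, while Acp5 (30.4 against 6.907 CPM), Calcr and Ocstamp were higher. The part of these markers in the results was not tested.

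Among synthetases Aars reached 358, 385 and 438 CPM with PAM3, against 136, 74.4 and 96.8 CPM at rest (1.95 ± 0.22, edgeR adjusted p = 3.06e-06). Yars reached 81.1, 85.5 and 98.4 CPM with PAM3, against 36.9, 18.5 and 25.3 CPM at rest (1.72 ± 0.26, edgeR adjusted p = 3.83e-05). For both, the lowest PAM3 library was far above the highest resting one. Eprs reached 316, 276 and 251 CPM, Gars 167, 155 and 199 CPM and Tars, for threonine, 119, 99.2 and 127 CPM with PAM3, with log2 fold changes of 1.66 ± 0.20, 1.54 ± 0.22 and 1.43 ± 0.20 over rest. Vars rose less, at 75.5, 108 and 98.3 CPM with PAM3 and 75.3, 51.7 and 63.9 CPM at rest (0.56 ± 0.22, edgeR adjusted p = 0.0344). Qars went the other way, at 99.95, 100.2 and 122 CPM with PAM3, against 119, 164 and 129 CPM at rest (-0.36 ± 0.14, edgeR adjusted p = 0.0306), with overlapping groups. Calls were lost without untreated resting replicate 2 for Dars (0.20), Qars (-0.21), Vars (0.43) and Psat1 (1.14). They were also lost without PAM3 replicate 1 for Dars (0.26) and Qars (-0.30), without PAM3 replicate 2 for Qars (-0.31) and Vars (0.45), without PAM3 replicate 3 for Vars (0.53) and Gpt2 (0.31), without resting replicate 3 for Vars (0.57) and Gpt2 (0.38) and without resting replicate 1 for Gpt2 (0.40).

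Among enzymes Cth, low throughout, had 2.94, 0.768 and 2.90 CPM with PAM3 and 0.185, 0.153 and 0.228 CPM at rest (3.51 ± 0.67, edgeR adjusted p = 0.000337). Mthfd2 (GRCm38 chromosome 6, 83305691 to 83325908, minus strand) had 207, 205 and 247 CPM with PAM3 and 37.1, 11.4 and 25.4 CPM at rest (3.16 ± 0.45, edgeR adjusted p = 2.66e-05). Both pairs of groups were separate, that of Cth with PAM3 replicate 2 well below the other 2. Aldh1l2 measured 7.41, 9.90 and 8.61 CPM, Asns 127, 111 and 163 CPM and Phgdh 28.6, 22.2 and 35.4 CPM with PAM3, which were log2 fold changes of 2.91 ± 0.31, 2.71 ± 0.45 and 2.30 ± 0.47 over rest. Among transporters Slc6a9 measured 7.71, 5.14 and 8.41 CPM with PAM3 and 0.989, 0.195 and 0.395 CPM at rest (3.87 ± 0.66, edgeR adjusted p = 0.000121). Slc7a1 measured 129.9, 108 and 105 CPM with PAM3 and 49.0, 9.04 and 29.1 CPM at rest (1.98 ± 0.60, edgeR adjusted p = 0.00928), again without overlap. Slc7a5 rose by 2.61 ± 0.48, Slc1a4 by 2.26 ± 0.37 and Slc3a2 by 0.53 ± 0.13 on the log2 scale. Slc38a2 had 193, 145 and 153 CPM with PAM3 and 218, 98.3 and 175 CPM at rest, overlapping groups with a log2 fold change of 0.00 ± 0.30 (95% interval -0.65 to 0.65, edgeR adjusted p = 0.997). Slc1a5 (-0.08 ± 0.23) and Got1 (0.34 ± 0.28) did not pass either.

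In Ch25h-/- cells PAM3 raised 31 members (29.9% of all genes rose) and lowered Qars (32.1% of all genes fell), where 62.0% of all genes changed in either direction. All 31 also rose in untreated B6. Aldh1l2 showed the largest rise, with 14.03, 6.75 and 13.9 CPM with PAM3 and 0.742, 0.274 and 1.13 CPM at rest (3.98 ± 0.36, edgeR adjusted p = 3.85e-07). Slc7a5 had 69.9, 66.8 and 80.2 CPM with PAM3 and 8.81, 1.71 and 6.91 CPM at rest (3.61 ± 0.52, edgeR adjusted p = 2.97e-05). In both genes the groups did not overlap and resting replicate 2 was lowest. Pycr1 (1.15 ± 0.52), Psph (0.51 ± 0.23), Gpt2 (0.11 ± 0.16) and Slc3a2 (0.25 ± 0.13), which rose in untreated B6, did not pass in Ch25h-/- cells, and the difference between the genotypes passed for none of them. Pycr1 passed with the mouse as a block (1.30, edgeR adjusted p = 0.0221), without resting replicate 3 (2.28) or without PAM3 replicate 2 (1.37). Psph (0.73) and Gpt2 (0.29) passed without PAM3 replicate 2 and Slc3a2 (0.39) without resting replicate 2. Calls of Dars (0.27), Vars (0.36), Psat1 (0.78) and Cth (1.60) were lost without resting replicate 2. Vars was also lost without any 1 PAM3 replicate (0.56 to 0.58), and Psat1 and Cth without resting replicate 3 (1.33 and 1.81), PAM3 replicate 1 (0.96 and 1.36) or PAM3 replicate 3 (1.13 and 1.77). Cell cycle markers summed to 46.05 to 80.44 CPM with PAM3 and 173.8 to 1389 CPM at rest in Ch25h-/- cells, and their part was not tested.

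In 25HC-treated cells PAM3 raised 15 members (28.5% of all genes rose) and lowered 4 (30.4% of all genes fell), where 58.9% of all genes changed in either direction. The 15 were 12 synthetases, Cth, Slc3a2 and Slc6a9, and all of them rose in untreated B6 too. Slc3a2 had 757, 701 and 693 CPM with PAM3 and 417, 339 and 368 CPM at rest in 25HC-treated cells (0.94 ± 0.13, edgeR adjusted p = 3.02e-05), and Cth 1.91, 2.84 and 2.66 CPM with PAM3 and 0.356, 0.412 and 0.450 CPM at rest (2.59 ± 0.64, edgeR adjusted p = 0.0028). Both pairs were separate. The 4 lower genes were Qars (-0.37 ± 0.14), Vars, Psph and Slc1a5. Slc1a5 had 29.5, 29.1 and 32.1 CPM with PAM3 and 70.5, 51.7 and 74.0 CPM at rest (-1.11 ± 0.23, edgeR adjusted p = 0.000725), without overlap. Cell cycle markers summed to 38.75 to 42.48 CPM with PAM3 and 533.6 to 875.6 CPM at rest in 25HC-treated cells, and their part was not tested. Without resting replicate 2 the count of calls was 12, with Cars (0.42), Farsb (0.34), Gars (0.43), Kars (0.18), Nars (0.25), Qars (-0.29) and Sars (0.35) lost. Vars was lost without resting replicate 3 (-0.58) or PAM3 replicate 3 (-0.62), Kars, Gars and Qars without PAM3 replicate 2 (0.27, 0.59 and -0.36), Qars without PAM3 replicate 1 or 3 (-0.36 and -0.38), and Kars and Nars without resting replicate 3 (0.29 and 0.33). With the mouse as a block Aldh1l2 (0.66), Asns (1.04), Mthfd2 (1.05), Hars (0.38) and Iars (0.37) rose as well.

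**Figure D3:**
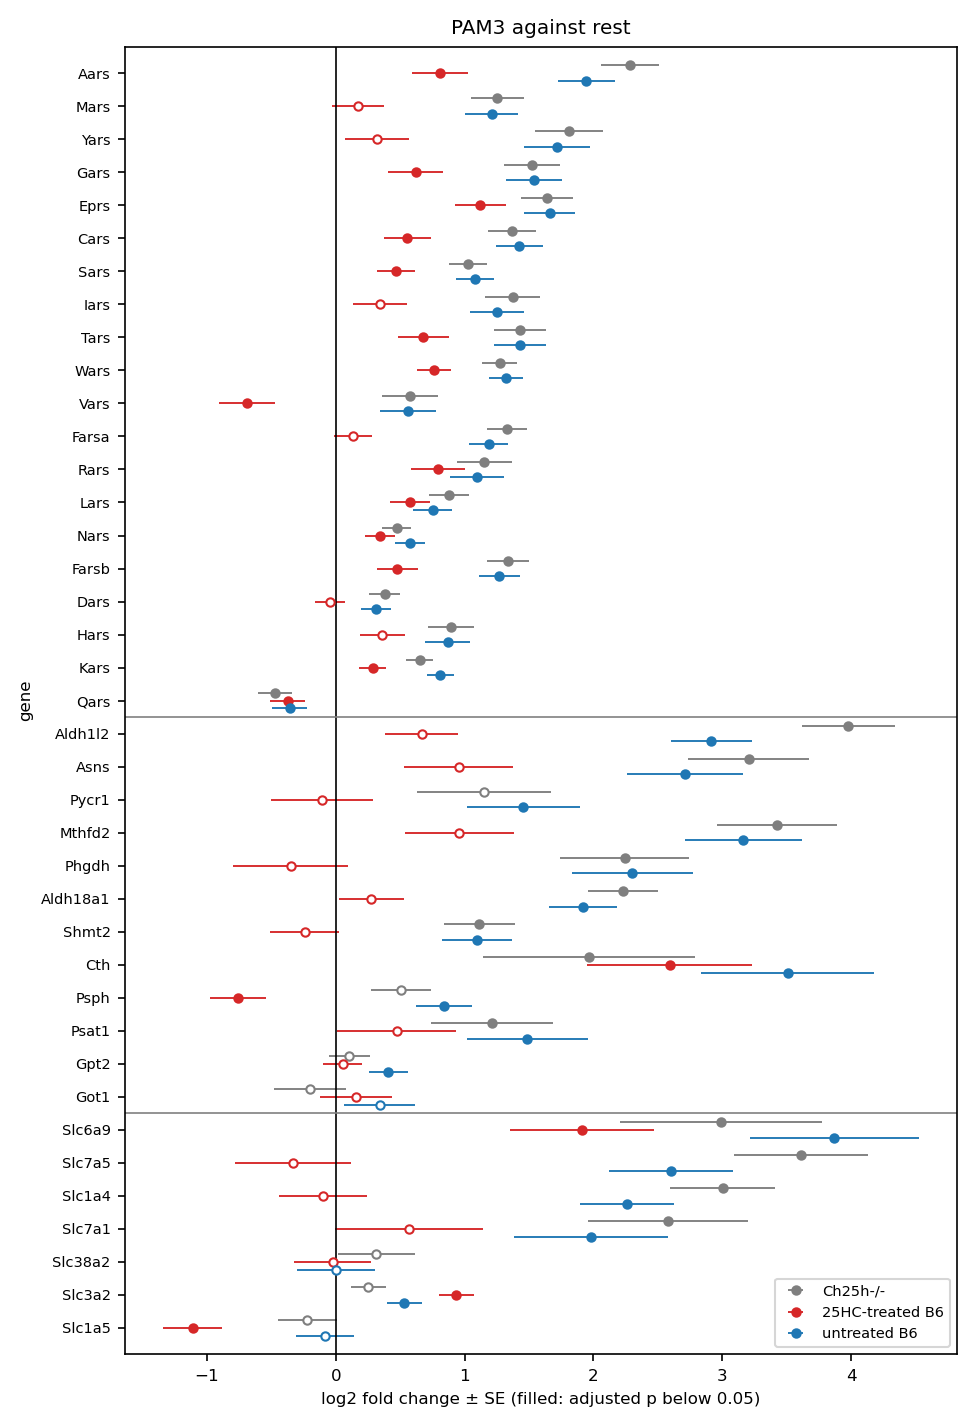
Log2 fold change of PAM3 over rest for each gene, with bars of 1 SE, in Ch25h-/- cells (grey), 25HC-treated B6 (red) and untreated B6 (blue). Filled points have an adjusted p below 0.05. Grey and blue points lie close together for most synthetases. Red points lie to the left of the blue ones for every gene but Slc3a2, though barely for Qars and Slc38a2. They lie to the left of both for genes that include Yars, Vars, Phgdh, Slc7a5 and Slc1a4.

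The effects of 25HC and PAM3 were less than additive on the log2 scale for 22 of the genes. The interaction, which is the effect of 25HC with PAM3 minus its effect at rest, was negative and passed the test for 22 of 39 members (15.8% of all genes) and positive for 0 (12.5% of all genes), where it passed in either direction for 28.3% of all genes. These were 12 synthetases, 7 enzymes and 3 transporters, and the median over the 39 was -0.92, against -0.08 over all genes. Of the 31 members that rose with each agent alone, 20 had a negative interaction and 11 did not pass. The comparisons with 25HC and those with PAM3 share the untreated resting libraries. The interaction compares the 25HC effect in both states, so the same values can be read as a smaller PAM3 effect in 25HC-treated cells. By the labels the PAM3 groups have a stimulation time of 18 and the resting groups 0. A 25HC effect that changes with time therefore cannot be told apart from an interaction with PAM3.

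Among synthetases the interaction was largest for Yars and Vars. Yars overlapped between the groups that received an agent, at 84.6, 94.3 and 85.1 CPM with 25HC and PAM3, 81.1, 85.5 and 98.4 CPM with PAM3 alone and 84.7, 49.3 and 77.6 CPM with 25HC alone (interaction -1.40 ± 0.36, edgeR adjusted p = 0.0105). Vars (GRCm38 chromosome 17, 35000987 to 35016322, plus strand), for valine, had 69.6, 85.8 and 66.5 CPM with both agents, 75.5, 108 and 98.3 CPM with PAM3 alone and 132, 87.7 and 139 CPM with 25HC alone (interaction -1.25 ± 0.31, edgeR adjusted p = 0.00872). Vars thus rose with PAM3 in untreated cells and fell with it in 25HC-treated cells (-0.69 ± 0.22, edgeR adjusted p = 0.0126). Aars went further up with both agents, to 529.6, 546 and 508 CPM, and its interaction was -1.14 ± 0.31. Farsa, a subunit of the phenylalanine enzyme, had 57.8, 62.9 and 56.0 CPM with both agents, 61.3, 72.0 and 74.4 CPM with PAM3 alone and 60.2, 44.1 and 57.1 CPM with 25HC alone (interaction -1.06 ± 0.21, edgeR adjusted p = 0.00287). Mars had 118, 119 and 111 CPM with both agents, 75.8, 85.7 and 99.9 CPM with PAM3 alone and 122, 75.1 and 111 CPM with 25HC alone (interaction -1.04 ± 0.29, edgeR adjusted p = 0.0155). For Mars and Farsa 25HC with PAM3 overlapped 25HC alone.

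Among enzymes Phgdh had the largest interaction (-2.65 ± 0.64, edgeR adjusted p = 0.00846). It had 15.8, 24.2 and 14.1 CPM with both agents, 28.6, 22.2 and 35.4 CPM with PAM3 alone and 25.3, 17.4 and 26.5 CPM with 25HC alone, and every library of these 3 groups lay at 14.1 CPM or more, where untreated resting cells had at most 7.69 CPM. Psph (GRCm38 chromosome 5, 129765558 to 129787449, minus strand), at the end of the same serine route, had 7.79, 8.503 and 7.77 CPM with both agents, 9.88, 10.9 and 13.9 CPM with PAM3 alone, 15.6, 11.0 and 14.2 CPM with 25HC alone and 8.16, 5.24 and 6.06 CPM in untreated resting cells (interaction -1.60 ± 0.31, edgeR adjusted p = 0.0025). Psph with both agents was below each agent alone, and PAM3 lowered it in 25HC-treated cells (-0.76 ± 0.22) and raised it in untreated cells (0.84 ± 0.22). Aldh1l2 (-2.25 ± 0.42), Mthfd2 (-2.20 ± 0.60), Aldh18a1 (-1.64 ± 0.36) and Shmt2 (-1.34 ± 0.38) also had negative interactions. Mthfd2 had 229, 239.5 and 226 CPM with both agents, which overlapped PAM3 alone, and Aldh18a1 had 65.5, 71.3 and 67.6 CPM with both agents and 61.7, 66.8 and 75.0 CPM with PAM3 alone. Asns and Aldh1l2 were above both agents alone in level. Aldh1l2 had 12.4, 13.9 and 16.5 CPM with both agents, 7.41, 9.90 and 8.61 CPM with PAM3 alone and 9.54, 8.02 and 9.36 CPM with 25HC alone. Asns lay at 263, 262 and 245 CPM with both agents, 127, 111 and 163 CPM with PAM3 alone and 172, 85.3 and 141 CPM with 25HC alone (interaction -1.76 ± 0.60, edgeR adjusted p = 0.0401).

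**Figure D4:**
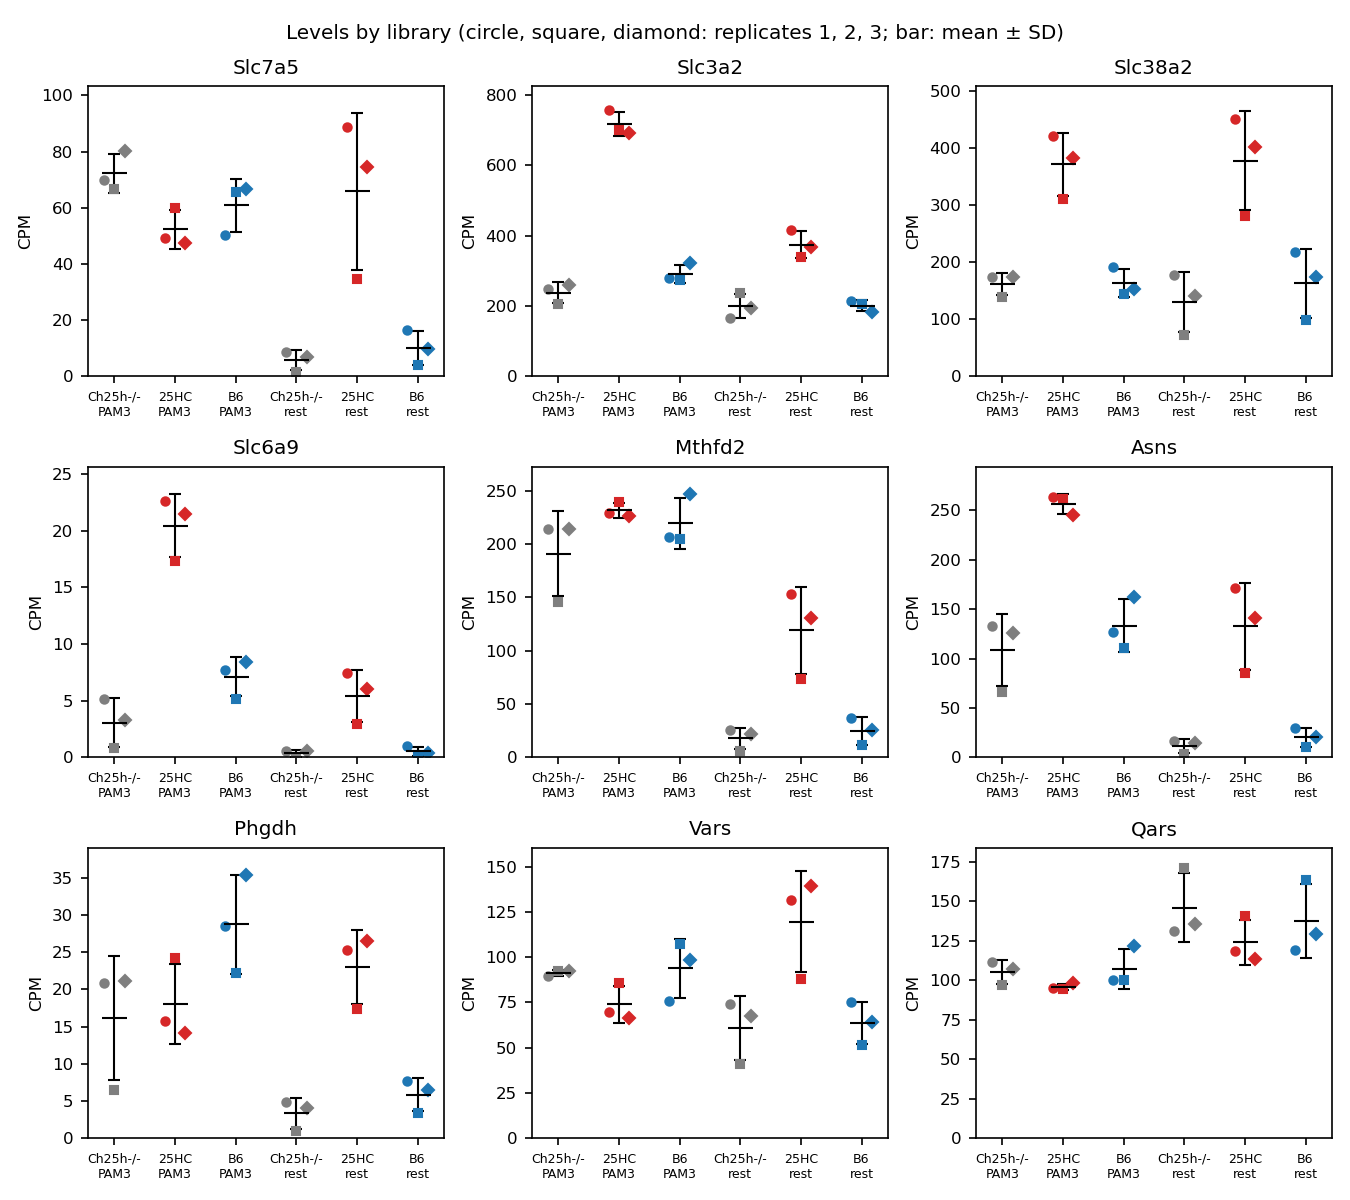
CPM of 9 genes in each of the 18 libraries, with mean and SD bars per group of 3. Circles, squares and diamonds are replicates 1, 2 and 3, in Ch25h-/- (grey), 25HC-treated B6 (red) and untreated B6 (blue). Slc7a5 is raised in all groups but resting Ch25h-/- and resting untreated B6, Slc38a2 only in the 2 red groups, and Slc3a2, Asns and Slc6a9 are highest with both agents.

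The 2 chains of the large neutral amino acid carrier are given side by side. Slc7a5 had the largest interaction of the transporters (-2.94 ± 0.65, edgeR adjusted p = 0.00532), with 49.3, 60.0 and 47.5 CPM with both agents, 50.1, 65.6 and 66.7 CPM with PAM3 alone and 88.6, 34.8 and 74.4 CPM with 25HC alone. Slc3a2 had an interaction of 0.40 ± 0.19 (95% interval -0.01 to 0.81, edgeR adjusted p = 0.122), with 757, 701 and 693 CPM with both agents, above every library with 1 agent. The difference between the chains was not itself tested. Slc38a2 (GRCm38 chromosome 15, 96687392 to 96699730, minus strand) responded to 25HC in both states and had an interaction of -0.03 ± 0.42 (95% interval -0.95 to 0.90). Slc1a4 had 19.4, 20.2 and 17.4 CPM with both agents, 14.6, 14.9 and 19.2 CPM with PAM3 alone and 25.8, 14.7 and 20.6 CPM with 25HC alone (interaction -2.36 ± 0.50, edgeR adjusted p = 0.00408). Slc1a5 was lower with both agents than in the other B6 groups, at 29.5, 29.1 and 32.1 CPM, against 38.5, 40.5 and 45.5 CPM with PAM3 alone (interaction -1.03 ± 0.32, edgeR adjusted p = 0.0277). Kars was called in opposite directions, higher with PAM3 in untreated cells, where resting libraries had 64.0, 60.3 and 61.6 CPM (0.81 ± 0.10) and lower with 25HC when PAM3 was present, with an interaction of -0.53 ± 0.14.

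Read by level, 25HC with PAM3 was above both single agents without overlap for 16 members (17.5% of all genes), of which 11 were synthetases, 2 enzymes (Asns and Aldh1l2) and 3 transporters (Slc3a2, Slc7a1 and Slc6a9). It was below both for Qars, Psph and Slc1a5 (17.8% of all genes), and the other 20 members lay between or overlapped. Of the 22 interactions 14 held in every fit that left out 1 library. Gars (-0.95 to -0.75), Sars (-0.63 to -0.49) and Slc1a5 (-1.07 to -0.90) were lost without any 1 of 25HC replicates 1 and 3, 25HC with PAM3 replicates 1 and 3, untreated replicates 2 and 3 and untreated PAM3 replicate 3. Wars (-0.58 to -0.43) was lost without any 1 of these or untreated PAM3 replicate 2, and Asns (-1.88 to -1.45) also without 25HC with PAM3 replicate 2. Iars (-0.95 to -0.72) was lost without any 1 of these or untreated PAM3 replicate 1, Cars (-0.85 to -0.74) without 25HC replicate 1, 25HC with PAM3 replicate 3 or untreated PAM3 replicate 3, and Shmt2 (-1.27) without 25HC with PAM3 replicate 3. The count of calls was 14 without 25HC with PAM3 replicate 3 and 32 without replicate 2 of every group. With the mouse as a block Eprs (-0.54), Tars (-0.73), Pycr1 (-1.55) and Slc6a9 (-1.93) were negative too.

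No member differed past the test between Ch25h-/- and untreated B6 cells. At rest 0 of 39 members differed between Ch25h-/- and untreated B6 (0.00785% of all genes did, Ch25h itself), with 2 members (Sars and Slc1a4, both lower) and 5.53% of all genes at an unadjusted p below 0.05 and 0 member calls by DESeq2. With PAM3 0 of 39 differed (0.173% of all genes did, 0.0471% higher and 0.126% lower), with 3 members (Sars, Gpt2 and Slc3a2, all lower) and 1784 of all 12741 genes at an unadjusted p below 0.05 and 0 member calls by DESeq2. Summed neutrophil and precursor markers were 17.42 to 89.11 CPM in Ch25h-/- cells, against 5.408 to 7.954 CPM in untreated B6 at rest. With PAM3 they were 11.29 to 24.44 CPM in Ch25h-/- cells, against 4.929 to 9.479 CPM in untreated B6. By group mean Camp went the other way with PAM3 (1.085 against 1.57 CPM), and Ly6g was at 0 in both. The part of these markers was not tested. Without overlap of the groups, 0 members were higher and 1 (Sars) was lower in Ch25h-/- cells at rest (4.69% and 5.49% of all genes). With PAM3 1 (Slc7a5) was higher and 4 (Sars, Phgdh, Pycr1 and Slc3a2) were lower (7.12% and 13.3% of all genes). The log2 difference was below 0 for 32 of 39 members at rest (51.4% of all genes) and for 34 with PAM3 (57.0% of all genes), with medians over the 39 of -0.15 and -0.13. With the mouse number as a block across genotypes 0 members passed in either comparison by edgeR, where 0.11% of all genes passed at rest and 2.89% with PAM3. The lowest adjusted p of a member in those fits was 0.463 at rest and 0.0608 with PAM3, and 4 members at rest and 6 with PAM3, all lower, had an unadjusted p below 0.05 (7.95% and 18.0% of all genes). Aars lay at 93.0, 54.1 and 82.4 CPM in Ch25h-/- cells, against 136, 74.4 and 96.8 CPM in untreated B6 at rest (log2 difference -0.42 ± 0.22, 95% interval -0.89 to 0.06). Asns lay at 16.4, 3.84 and 14.7 CPM in Ch25h-/- cells, against 30.1, 10.8 and 20.5 CPM in untreated B6 at rest (-0.79 ± 0.44, 95% interval -1.76 to 0.17), and with PAM3 at 133, 66.5 and 126 CPM in Ch25h-/- cells, against 127, 111 and 163 CPM in untreated B6 (-0.30 ± 0.42, 95% interval -1.22 to 0.62). The groups overlapped in these 3 cases, and the interval of Asns at rest reaches below a 2-fold decrease. Eprs gave the narrower -0.40 to 0.45 at rest and -0.42 to 0.42 with PAM3. The test of whether PAM3 acted differently in the genotypes passed for 0 members and 0 of all genes by edgeR, with 598 of all genes and 1 member at an unadjusted p below 0.05 (Aldh1l2, 1.07 ± 0.48) and 0 member calls by DESeq2. Without replicate 2 of every group Phgdh (-0.61) and Aldh1l2 (0.81) differed between genotypes with PAM3.

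Among the regulators, PAM3 in untreated B6 raised 8 of 14 (31.3% of all genes rose) and lowered 0 (30.8% of all genes fell). Atf4 lay at 323, 345 and 421 CPM with PAM3, against 128, 88.0 and 103 CPM at rest (1.77 ± 0.19, edgeR adjusted p = 1.68e-06), and with both agents at 659, 738 and 657 CPM. Trib3 lay at 113, 131 and 113 CPM with both agents, 25.1, 30.5 and 34.7 CPM with PAM3 alone and 85.4, 47.2 and 63.7 CPM with 25HC alone, where both agents together gave the highest level. With PAM3 present, 7 of the 14 regulators were higher with 25HC (21.5% of all genes were) and 1 was lower (23.6% of all genes were). The interaction past the test was negative for 5 regulators (15.8% of all genes) and positive for 1 (12.5% of all genes). In level, Atf4 and Trib3 with both agents lay above every library with 1 agent. On the log2 scale the interaction was negative for Atf4 (-0.80 ± 0.26, edgeR adjusted p = 0.0333), Trib3 (-1.45 ± 0.33), Atf5 (-1.29 ± 0.23), Nupr1 (-1.04 ± 0.28) and Chac1 (-3.46 ± 0.70). It was positive for Ppp1r15a, a phosphatase subunit that lets translation resume, which had 125, 114 and 115 CPM with both agents, 26.6, 22.1 and 28.2 CPM with PAM3 alone, 46.0, 38.2 and 40.3 CPM with 25HC alone and 21.1, 26.6 and 20.6 CPM in untreated resting cells (1.34 ± 0.21, edgeR adjusted p = 0.000814). Ddit3 rose with 25HC and not with PAM3 in untreated cells (0.14 ± 0.16), and its interaction was -0.15 ± 0.22, edgeR adjusted p = 0.64. Of the 17 mitochondrial synthetases 7 rose and 2 fell with PAM3 in untreated B6 (31.3% and 30.8% of all genes). With 25HC when PAM3 was present, 1 was higher and 2 were lower (21.5% and 23.6% of all genes). Slc7a11 had 1087, 576 and 1030.4 CPM with both agents, against 79.0, 12.3 and 21.7 CPM with PAM3 alone (4.58 ± 0.78, edgeR adjusted p = 0.000259), with no overlap and a wide spread in untreated cells. Bcat1, with 2.81, 3.89 and 3.51 CPM with both agents, 1.61, 1.22 and 2.19 CPM with PAM3 alone and 2.69, 0.487 and 1.83 CPM with 25HC alone, had a negative interaction (-2.75 ± 0.87, edgeR adjusted p = 0.0285).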

How the data were processed

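The submitters' processing notes name FastQC 0.11.9, GSNAP, featureCounts of Subread 1.5.2, edgeR 3.26.8 and the GRCm38 (mm10) build, and the labels' protocols name polyA selection and a stranded Illumina TruSeq kit. The deposited values are raw counts per gene, which the authors made from the reads; the strand setting, annotation release and handling of multiply matching reads are not stated. Members and other gene lists were chosen with earlier results of these data known. Values per library are given for up to 5 synthetases, 5 enzymes and 4 transporters of largest change among those past the threshold in each main comparison and for members called in opposite directions; other genes given in full were chosen after their values were seen. From the counts, edgeR 4.0.16 in R 4.3.3 fitted 1 model over 6 groups and 18 libraries (TMM factors, filterByExpr, robust quasi-likelihood F test, 12 residual degrees of freedom). Each SE was derived from the log2 fold change and its F statistic. The same steps were tested on simulated data. Replicate numbers name mice, so same-numbered B6 libraries, and same-numbered Ch25h-/- libraries, come from 1 animal; their deviations from the group means correlated between -0.162 and 0.581 in the pairs used. Same-numbered Ch25h-/- and B6 libraries are of different mice, and correlated at 0.327 to 0.705 at rest and 0.0949 to 0.459 with PAM3, so the number was also tried as a block across genotypes. Alternatives were DESeq2 1.42.0, other size factors, other filters, only the groups compared, the animal as a block and libraries left out. Counting error aside, p-values of the main fit measure the spread between libraries within groups, pooled over the 6 groups and partly shared across genes. Each group holds 3 mice, and that fit has no term for the mouse. Python 3.11.15 searched the promoters, and 1 matching sequence is not reported here.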

Additional observations from a re-analysis of the deposited data

Results flagged for a closer look

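For 22 genes the effect of 25HC with PAM3 differed from its effect at rest by the interaction test of edgeR (adjusted p below 0.05), each time lower with PAM3. Among synthetases the interaction on the log2 scale was -1.40 for Yars, -1.25 for Vars, -1.14 for Aars, -1.06 for Farsa, -1.04 for Mars, -0.92 for Gars, -0.91 for Iars, -0.87 for Cars, -0.79 for Farsb, -0.61 for Sars, -0.56 for Wars and -0.53 for Kars. Among enzymes it was -2.65 for Phgdh, -2.25 for Aldh1l2, -2.20 for Mthfd2, -1.76 for Asns, -1.64 for Aldh18a1, -1.60 for Psph and -1.34 for Shmt2. Among transporters it was -2.94 for Slc7a5, -2.36 for Slc1a4 and -1.03 for Slc1a5.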

How the results depend on the processing

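The rise of 32 members with 25HC at rest and of 35 with PAM3 in untreated B6 stayed within 1.5 times in count under every alternative run. The count of calls for 25HC with PAM3 was 11, against 21 with only the groups compared, 6 to 8 over the fits without 1 library and 22 without replicate 2 of every group. Without 1 library PAM3 in 25HC-treated cells gave 12 to 19 calls, and without replicate 2 of every group 24. Ch25h-/- against B6 with PAM3 gave 0 calls without 1 library and 2 without replicate 2 of every group. The interaction gave 14 to 24 calls without 1 library and 32 without replicate 2 of every group. With the mouse as a block, which pairs libraries of 1 animal, the counts were 34 for 25HC at rest, 16 for 25HC with PAM3, 36 for PAM3 in untreated B6, 24 in 25HC-treated cells, 33 in Ch25h-/- cells, 26 for the interaction and 0 for the test of genotype and PAM3. The genotypes come from different mice, and there the block was the mouse number shared by the genotypes, with 0 calls at rest and 0 with PAM3. Single members were followed where they passed in any fit of a comparison, which gave 198 pairs of a member and a comparison. Of their values under alternatives, 2505 kept direction and side of the threshold, 93 passed it newly, 164 no longer passed and 3 changed sign. The 3 were PAM3 in Ch25h-/- cells for Got1, 0.38 without resting replicate 2 and 0.52 without replicate 2 of every group, and for Gpt2, -0.056 without PAM3 replicate 1. Leaving out 1 library, Got1 ranged down to -0.44 and Gpt2 up to 0.29. The cause was not tested. Slc6a9, Cth, Pycr1 and Aldh1l2 had few counts, which limits their precision. Their lowest counts in a library were 0, 1, 1 and 4, and those of Slc1a4 and Phgdh were 10 and 15.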
